A study of Saccharomyces cerevisiae with 50 samples.

Results

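The respiratory chain of Saccharomyces cerevisiae passes electrons from NADH dehydrogenases and from succinate dehydrogenase (complex II) through the cytochrome bc1 complex (complex III) and cytochrome c to cytochrome c oxidase (complex IV), and the proton gradient that results drives the ATP synthase. In yeast most of the nuclear genes for these subunits are held low on glucose. On non-fermentable carbon sources most are induced by the Hap2/3/4/5 complex, whose limiting activator subunit is Hap4p. Binding of 6 transcription factors at the promoters of 39 such genes is described here: HAP4 itself, 9 complex III genes, 2 cytochrome c genes, 9 complex IV genes, 12 ATP synthase genes, 4 complex II genes and 2 NADH dehydrogenase genes. They were taken by name and function out of 6430 nuclear genes whose promoter, the 600 bp upstream of the gene start, could be placed on the R64 genome.

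The study immunoprecipitated myc-tagged factors from W303 yeast strain Z1256 and asked how deletion of a predicted cofactor altered the binding of its partner. Gcn4p (WT and rtg3Δ strains), Rtg3p (WT and gcn4Δ), Nrg1p (WT and sut1Δ) and Sut1p (WT and nrg1Δ) each had 3 IPs per strain, Swi6p (WT and swi4Δ) had 2 per strain, and Swi4p (WT and swi6Δ) had 1 per strain. Gcn4p and Rtg3p had 3 INPUT samples per strain, whereas Nrg1p, Sut1p, Swi4p and Swi6p had 1. Replicate IPs of Nrg1p, Sut1p and Swi6p in a strain thus had 1 INPUT in common, and a peak that recurs among them is not independent of it. In every strain the assayed factor carried a C-terminal c-myc epitope, and in the deletion strains the cofactor gene was replaced by a kanamycin resistance marker. The GCN4-myc and RTG3-myc cultures were grown in YPD, a glucose medium, and received 100 nM rapamycin, an inhibitor of the TOR kinase, for 20 min before harvest. The NRG1-myc, SUT1-myc and SWI4-myc cultures were grown to mid-log phase in YPD without the drug, and the medium of the SWI6-myc strains is not named in the labels. A WT culture was divided for the replicate IPs whereas each deletion replicate was grown separately, so the spread among WT IPs is that of 1 culture. No culture was grown on a non-fermentable carbon source, and no expression data were used here.

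Each of the 30 IPs is represented by a list of MACS peaks, and a gene was counted as having a peak where a peak overlapped its promoter by at least 1 bp. MACS, a peak finder that compares IP with INPUT reads, gave every peak a score that grows as its p-value falls. Deposited scores began at 50.0. Of all 8486 peaks 197 shared the score 3100 exactly and 16 scored above it, up to 3227, whereas only 9 lay between 3000 and 3100, so peaks at 3100 cannot be ranked among themselves. The lists held from 3 to 1065 peaks and the read depth behind them is unknown, so a gene without a peak is one at which none was called, not one shown to be unbound. The Sut1p WT list of replicate 3 stood apart from the other WT lists. Of the promoters in either list it shared 3.97% with WT replicate 1 and 8.24% with WT replicate 2, whereas replicates 1 and 2 shared 38.9% with each other, and it shared between 23.6% and 30.8% with the nrg1Δ lists. The mean Sut1p share of the gene set and its genes gained or found in every WT IP are therefore also given without that IP. So are the differences in Sut1p score at HAP4, COR1, COX9, NDE1 and COX8. The genes lost, the count over all Sut1p IPs, the comparison at equal list lengths and the values of other gene lists include it.

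Across all 30 lists, 20 of the 39 genes (51.3%) had at least 1 peak, close to the 50.2% of all promoters that did. Of the 39 genes, 9 (23.1%) had a peak in 3 or more lists, against 25.3% of all promoters. COR1 was in the most lists (10), followed by COX8 (9), COX9 (8), HAP4 (7), QCR6 (6), CYC7 (5), CYC1 and NDE1 (4 each) and RIP1 (3). CYT1, COX6 and ATP18 were in 2 lists each. QCR7, COX13, ATP2, ATP5, ATP7, ATP14, ATP16 and SDH1 were in 1 list each. The other 19 genes had no peak in any list. These were the complex III genes QCR2, QCR8, QCR9 and QCR10, the complex IV genes COX4, COX5A, COX5B, COX7 and COX12, the ATP synthase genes ATP1, ATP3, ATP4, ATP15, ATP17 and ATP20, the complex II genes SDH2, SDH3 and SDH4, and the internal NADH dehydrogenase gene NDI1.

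**Figure D1:**
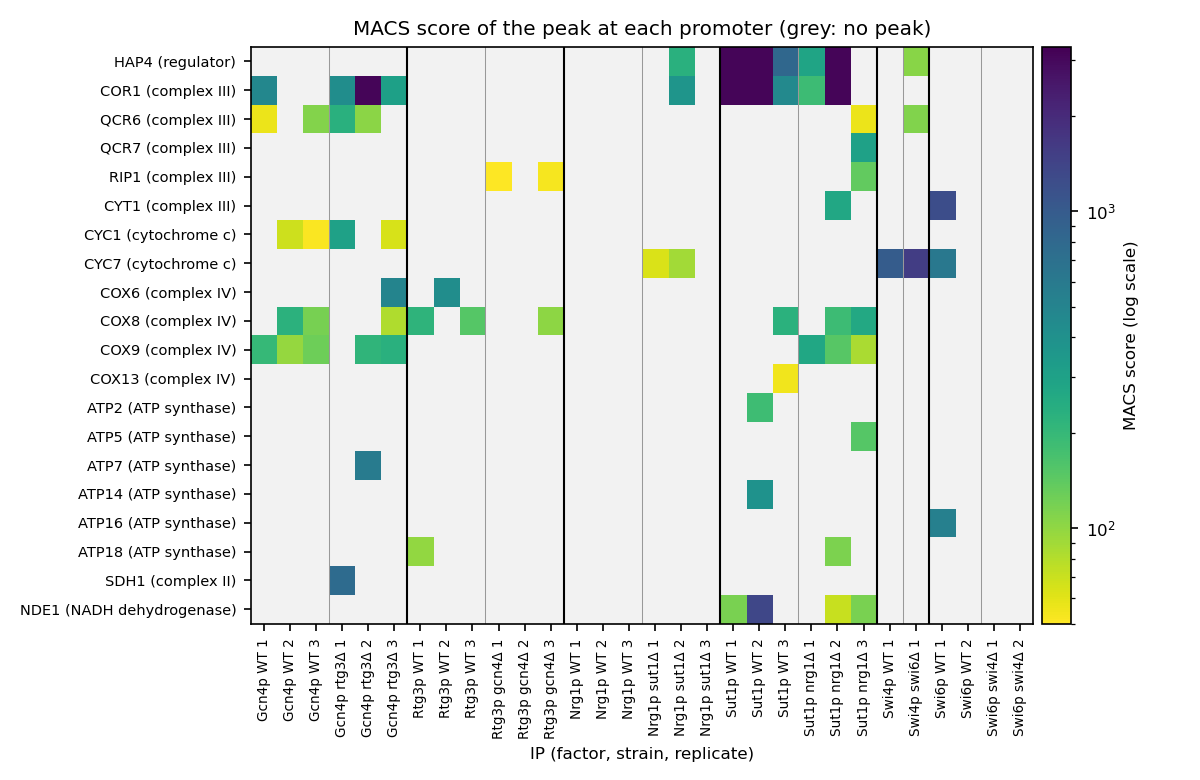
MACS score (colour, log scale) of the peak at the promoter of each of the 20 genes with at least 1 peak (vertical axis, with complex) in each of the 30 IPs (horizontal axis, by factor, strain and replicate). Grey cells have no peak. The darkest cells, with scores of 3100, are HAP4 and COR1 in Sut1p IPs and COR1 in 1 Gcn4p rtg3Δ IP.

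The share of the 39 genes with a peak stayed near that of all promoters for most factors. For Gcn4p, the activator of amino acid biosynthesis genes, 3, 3 and 4 of the 39 genes had a peak in the WT IPs (7.69%, 7.69% and 10.3%), against 9.78%, 10.1% and 10.5% of all promoters. In the rtg3Δ strain 4, 4 and 5 genes did (10.3%, 10.3% and 12.8%), against 6.87%, 8.77% and 9.95%. Thus the gene set lay below the background in the 3 WT IPs and above it in the 3 rtg3Δ IPs, in each list by fewer than 2 genes.

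For Rtg3p, the retrograde factor that relays mitochondrial state to nuclear genes, 2, 1 and 1 genes had a peak in the WT IPs, where 5.46%, 1.94% and 3.53% of all promoters did. In the gcn4Δ IPs 1, 0 and 2 genes had a peak, against 1.54%, 0.529% and 3.28% of all promoters. Nrg1p, a glucose-dependent repressor, had no peak at any of the 39 promoters in the WT IPs, where 0.28%, 0.218% and 1.32% of all promoters had one. With so few peaks called genome-wide, an absence at 39 promoters was not distinguishable from the background. In the sut1Δ strain 1, 3 and 0 genes had an Nrg1p peak, against 0.7%, 1.34% and 0.342% of all promoters, and the strains overlapped at 0 genes.

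For Sut1p, a zinc cluster factor linked to sterol uptake and hypoxic genes, 3, 5 and 4 genes had a peak in the WT IPs (7.69%, 12.8% and 10.3%), against 2.89%, 6.83% and 11.4% of all promoters. In the nrg1Δ IPs 3, 7 and 7 genes had a peak (7.69%, 17.9% and 17.9%), against 12.2%, 16.3% and 18.2%. Only in WT replicates 1 and 2, among the 6 Sut1p IPs, was the share of the gene set above 1.5 times that of all promoters.

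Swi4p and Swi6p form SBF, the activator of G1/S genes. Swi4p had a peak at 1 gene in its WT IP and at 3 genes in its swi6Δ IP, where 2.26% and 6.1% of all promoters had one. Swi6p had peaks at 3 genes in WT replicate 1 and at none in WT replicate 2, against 8.55% and 7.0% of all promoters, and at none in both swi4Δ IPs, against 0.0778% and 0.264%.

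**Figure D2:**
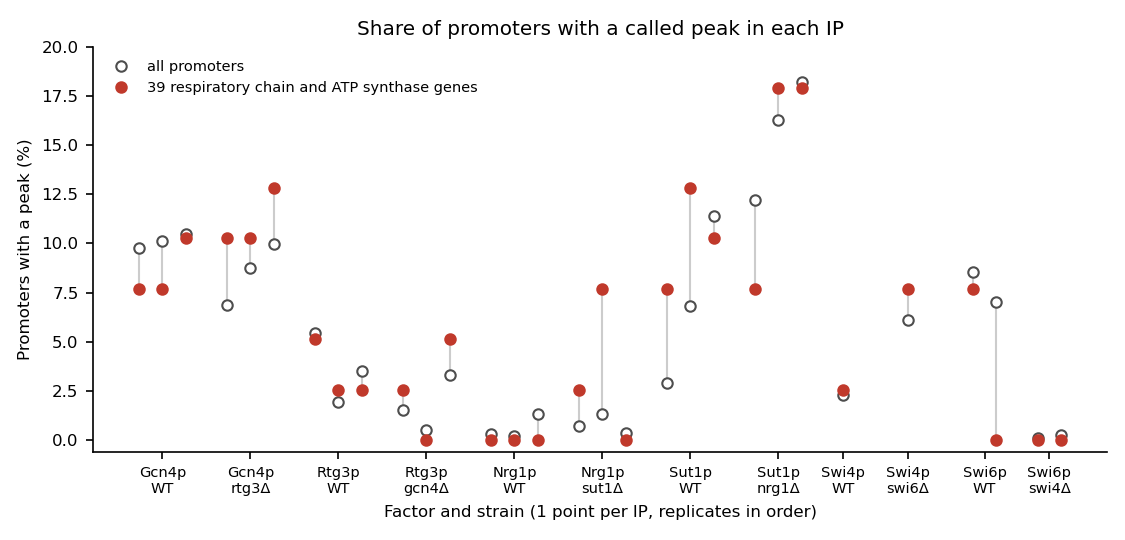
Percentage of promoters with a called peak (vertical axis) in each IP, grouped by factor and strain (horizontal axis), for the 39 respiratory chain and ATP synthase genes (filled) and for all 6430 promoters (open). The filled points stand farthest above the open ones in Nrg1p sut1Δ replicate 2 (7.69% against 1.34%) and Sut1p WT replicates 1 and 2 (7.69% and 12.8% against 2.89% and 6.83%), and farthest below in Swi6p WT replicate 2 (0 against 7.0%).

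The mean share of the gene set changed from 10.3% ± 2.56 in WT to 14.5% ± 5.92 in nrg1Δ for Sut1p (SD, n = 3 IPs), a difference of 4.27 percentage points, while the share of all promoters differed by 8.55 points. Without WT replicate 3 the WT mean was 10.3% of the gene set and 4.86% of all promoters, and the differences were 4.27 and 10.7 points. For Gcn4p it changed from 8.55% ± 1.48 to 11.1% ± 1.48 (SD, n = 3 IPs), a difference of 2.56 points, while that of all promoters changed by -1.6 points. The highest WT share for Gcn4p equalled the lowest rtg3Δ share. The differences were -0.855 points for Rtg3p (-1.86 for all promoters), 3.42 for Nrg1p (0.187), 5.13 for Swi4p (3.84) and -3.85 for Swi6p (-7.6), and the shares of the 2 strains overlapped for every factor that had replicates. When all Sut1p lists were shortened to the 117 highest-scoring peaks of the shortest one, the Sut1p difference became -5.13 points, the opposite direction, and that of all promoters became -0.0467 points.

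Few of the genes were found by a factor in every IP of a strain. For Sut1p 2 of the 39 genes, HAP4 and COR1, had a peak in every WT IP (5.13%), against 0.544% of all promoters, or 35 genes. One gene, COX9 (1 of 39, 2.56%), had a Sut1p peak in every nrg1Δ IP, against 7.23% of all promoters. A peak in at least 4 of the 6 Sut1p IPs was present at 3 genes (7.69%), HAP4, COR1 and NDE1, against 4.96% of all promoters. COX9 was also the 1 gene that gained Sut1p, with peaks in all nrg1Δ IPs and no WT IP, against 2.97% of all promoters, and no gene lost it, against 0.0467%. Without WT replicate 3 COX9 was still the 1 gene gained, against 5.82% of all promoters.

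For Gcn4p, COX9 was the 1 gene with a peak in every WT IP (4.12% of all promoters) and COR1 the 1 gene with a peak in every rtg3Δ IP (3.28%). No gene gained or lost Gcn4p by that rule, as against 0.0778% and 0.389% of all promoters. None of the 39 genes was found in every IP of either strain for Rtg3p (0.591% of all promoters in WT and 0.187% in gcn4Δ), Nrg1p (0.0778% in WT and 0.311% in sut1Δ) or Swi6p (5.66% in WT and 0.0 in swi4Δ).

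HAP4 (YKL109W, chromosome 11, 232227 to 233891 on the forward strand) encodes the activator subunit of the Hap complex, and its promoter lay beneath some of the strongest Sut1p peaks. The Sut1p scores at HAP4 were 3100, 3100 and 815.33 in WT replicates 1, 2 and 3. In the nrg1Δ strain they were 284.26 in replicate 1 and 3100 in replicate 2, and replicate 3 had no peak. All 3 WT IPs were therefore above the first nrg1Δ IP, but the second reached 3100 and the strains overlapped.

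Within each list the HAP4 peak tied for first of 117 peaks in WT replicate 1, tied for second of 267 in replicate 2 and ranked seventh of 579 in replicate 3, the list that stood apart. The tied score of 3100 was held by 10 peaks in WT replicate 1 and by 27 in WT replicate 2. In the nrg1Δ strain the HAP4 peak ranked 115 of 696 in replicate 1 and tied for first of 808 in replicate 2. The mean score was 2338 ± 1319 in WT and 1128 ± 1714 in nrg1Δ (SD, n = 3 IPs, an absent peak taken as 0), a difference of -1210.4, and a two-sided exact permutation test gave p = 0.4 (adjusted p = 0.961 over the 2056 promoters with a Sut1p peak). With 3 IPs against 3 the smallest p such a test can give is 0.1, so no promoter could pass 0.05. Because the WT IPs came from 1 culture, the p-values here and below do not measure variation between WT cultures. The difference was -1971.9 without WT replicate 3 (p = 0.4, exact permutation test) and -2196.3 without nrg1Δ replicate 2 (p = 0.2, exact permutation test).

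**Figure D3:**
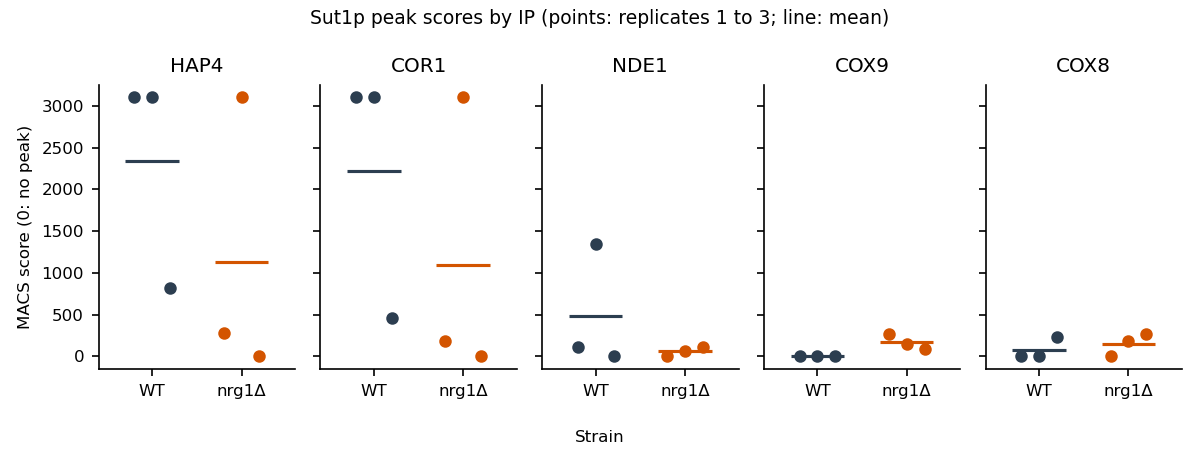
Sut1p MACS score (vertical axis, 0 where no peak was called) at 5 promoters in the WT and nrg1Δ strains (horizontal axis). Points are replicates 1 to 3 from left to right and lines are means. HAP4 and COR1 reach 3100 in both strains, NDE1 is highest in WT replicate 2 (1349.66), and COX9 has scores of 85.09 to 272.34 in nrg1Δ and none in WT.

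The Sut1p peaks at HAP4 were wide and centred far from the gene. In WT replicate 1 the peak ran over chr11:230030-232135, a width of 2106 bp, with its midpoint 1144 bp upstream of the HAP4 start. The midpoints of WT replicates 2 and 3 lay 1132 and 1013 bp upstream, and those of nrg1Δ replicates 1 and 2 lay 544 and 859 bp upstream. The intergenic region is 2346 bp long and is shared with the divergent gene KTI12, an Elongator-associated factor, whose promoter was overlapped by the same peak in all 3 WT IPs and in nrg1Δ replicate 2. All 5 Sut1p peaks overlapped the 600 bp HAP4 promoter by 443 bp or more, but in the WT strain no midpoint lay inside it.

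Nrg1p and Swi4p had weaker peaks in the same interval, each in 1 of its deletion-strain IPs. Nrg1p had a peak of score 229.92 at HAP4 in sut1Δ replicate 2, with a midpoint 1250 bp upstream, and none in the other 5 Nrg1p IPs. Swi4p had a peak of score 104.6 in its swi6Δ IP, 1033 bp upstream, and none in WT. Gcn4p, Rtg3p and Swi6p had no peak at HAP4 in any IP.

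COR1 (YBL045C, chromosome 2, 134143 to 135516 on the reverse strand) encodes a core subunit of complex III and behaved much like HAP4 in the Sut1p lists. Its Sut1p scores were 3100, 3100 and 462.18 in WT replicates 1, 2 and 3. In the nrg1Δ strain they were 187.9 in replicate 1 and 3100 in replicate 2, with no peak in replicate 3. The IPs with scores of 3100, with lower scores and with no peak were the same as at HAP4, and in nrg1Δ replicate 2 these were the only 2 of 808 peaks that reached 3100.

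The mean Sut1p score at COR1 was 2221 ± 1523 in WT and 1096 ± 1738 in nrg1Δ (SD, n = 3 IPs), a difference of -1124.8 (p = 0.4, two-sided exact permutation test, adjusted p = 0.961). Without WT replicate 3 the difference was -2004.0 (p = 0.4, exact permutation test). The peak of WT replicate 1 covered chr2:135461-136782. Midpoints lay 517 to 605 bp upstream of the COR1 start in all 5 lists, at the outer edge of its promoter, and every one of the 5 peaks also overlapped the promoters of the divergent gene YBL044W and of ECM13. The interval between COR1 and YBL044W is 481 bp, so the peak cannot be given to COR1 alone.

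The same COR1 interval had Gcn4p peaks. Their scores were 472.86 in WT replicate 1, with none in WT replicates 2 and 3. In the rtg3Δ strain they were 422.31, 3100 and 307.1. The 3 rtg3Δ IPs and 1 of 3 WT IPs thus had a peak, the WT score lay within the rtg3Δ range, and the difference in mean of 1118.8 gave p = 0.3 (two-sided exact permutation test, adjusted p = 1.0 over 1501 promoters). An Nrg1p peak of score 368.62 was called there in sut1Δ replicate 2, the same IP that had one at HAP4.

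The remaining complex III genes had scattered and mostly weak peaks. QCR6, a small acidic subunit, had Gcn4p scores of 56.98 and 108.52 in WT replicates 1 and 3 and of 232.57 and 103.58 in rtg3Δ replicates 1 and 2, a Sut1p score of 56.3 in nrg1Δ replicate 3 and a Swi4p score of 109.93 in swi6Δ. Of these 6 peaks 5 were 2584 to 3392 bp wide and crossed several genes, among them PHO4, so only the 616 bp peak of Gcn4p rtg3Δ replicate 1 was local to QCR6. RIP1, the Rieske iron-sulphur protein, had Rtg3p peaks barely above the deposited minimum in gcn4Δ replicates 1 and 3 (50.1 and 53.02) and a Sut1p peak in nrg1Δ replicate 3 (136.02).

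CYT1, which encodes cytochrome c1, had a Swi6p score of 1220.61 in WT replicate 1. That peak was centred 1809 bp upstream of CYT1, over RPL3 and YNG1, and reached the CYT1 promoter only with its last 144 bp. Its Sut1p peak in nrg1Δ replicate 2 (269.79) was centred 708 bp downstream of the gene start. QCR7 had a Sut1p peak in nrg1Δ replicate 3 (297.8) that touched its promoter by 11 bp, the smallest overlap among the 70 peaks counted.

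The 2 cytochrome c genes had no factor in common. CYC1, which encodes the main isoform of aerobic cells, was found by Gcn4p alone, with scores of 68.99 and 51.07 in WT replicates 2 and 3 and of 301.73 and 64.51 in rtg3Δ replicates 1 and 3. The peaks of WT replicate 2 and rtg3Δ replicate 3 were centred 891 and 930 bp upstream and overlapped the divergent gene ANB1. That of WT replicate 3 was 2567 bp wide and ranked 512 of 519. Only the 592 bp peak of rtg3Δ replicate 1 overlapped no other promoter. CYC7, which encodes the isoform favoured when oxygen is low, was found by Swi4p in WT (976.0) and swi6Δ (1547.35), by Swi6p in WT replicate 1 (620.32) and by Nrg1p in sut1Δ replicates 1 and 2 (63.8 and 89.93). All 5 CYC7 peaks were 3008 bp wide or more and were centred 1058 to 1342 bp downstream of the CYC7 start, where they covered UTR2, a cell wall transglycosylase gene. Swi6p WT replicate 2 had no peak there.

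COX9 (YDL067C, chromosome 4, 334217 to 334396 on the reverse strand) encodes a small subunit of complex IV and was the 1 gene of the set that was gained by Sut1p in the absence of Nrg1p. Its Sut1p scores were 272.34, 147.39 and 85.09 in nrg1Δ replicates 1, 2 and 3, and none of the WT IPs had a peak. The groups did not overlap. The difference of 168.3 in mean score (0 in WT and 168.3 ± 95.4 in nrg1Δ, SD, n = 3 IPs) had p = 0.1, the smallest that the two-sided exact permutation test allows, and an adjusted p = 0.608. Without WT replicate 3 the same difference had p = 0.2 (exact permutation test). Of the 2056 promoters with a Sut1p peak, 338 (16.4%) reached the same p, 333 of them with higher scores in nrg1Δ.

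The Sut1p peaks at COX9 were small and nearly the same in extent in the 3 lists. That of nrg1Δ replicate 1 covered chr4:333585-334585, and the midpoints lay 301 to 311 bp downstream of the COX9 start, beyond the end of this short gene and within the promoter of CBS1, a translational activator of cytochrome b mRNA. The peaks overlapped the COX9 promoter by only 189 to 208 bp and reached the promoters of both CBS1 and IDP1, the mitochondrial NADP-specific isocitrate dehydrogenase, which is divergent from COX9 across 438 bp. A score of at least 100 removed the peak of replicate 3, and no gene of the set was then found in every nrg1Δ IP.

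Gcn4p also had peaks at COX9, with scores of 198.92, 96.92 and 125.5 in WT replicates 1, 2 and 3. In the rtg3Δ strain replicate 1 had none and replicates 2 and 3 had 213.01 and 231.76. The rtg3Δ values lay on both sides of all WT values, and the difference of 7.81 in mean score gave p = 0.9 (two-sided exact permutation test, adjusted p = 1.0). These Gcn4p peaks were 1140 to 2421 bp wide and overlapped the CBS1 and IDP1 promoters as well.

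**Figure D4:**
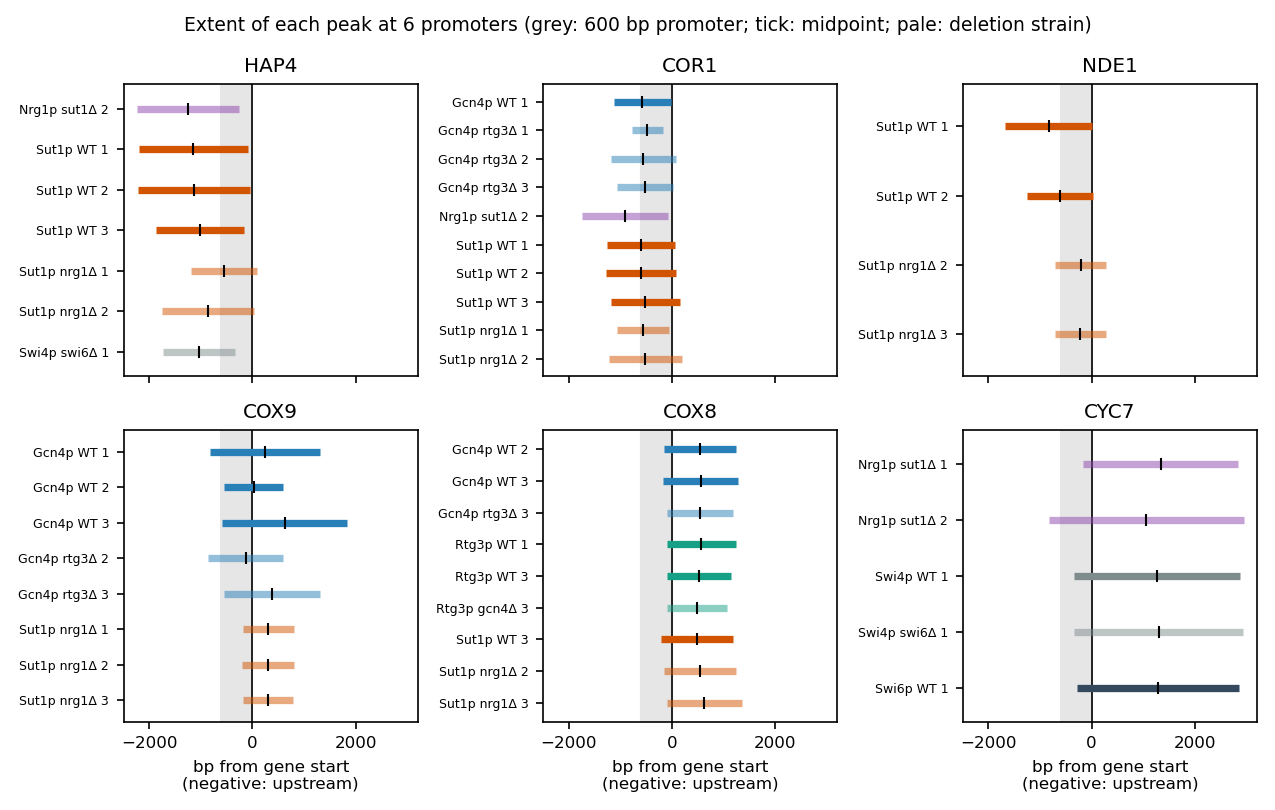
Extent of every peak counted at 6 of the genes, in bp from the gene start (horizontal axis, negative values upstream, promoter shaded), with 1 bar per IP, a tick at the midpoint and paler bars for deletion strains. Midpoints lie 544 to 1250 bp upstream at HAP4, 479 to 912 bp upstream at COR1, and downstream of the start in all 9 lists at COX8 and all 5 at CYC7.

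COX8, another small complex IV subunit, was in 9 lists with a single recurrent peak. Gcn4p scores there were 223.89 and 118.23 in WT replicates 2 and 3 and 82.95 in rtg3Δ replicate 3. Rtg3p scores were 215.6 and 150.15 in WT replicates 1 and 3 and 102.55 in gcn4Δ replicate 3, and Sut1p scores were 228.65 in WT replicate 3 and 186.31 and 263.39 in nrg1Δ replicates 2 and 3. In all 9 lists the peak was centred 481 to 626 bp downstream of the COX8 start, beyond the gene itself and at the end of the convergent gene CST9, a meiotic factor, and overlapped the COX8 promoter by 98 to 206 bp. The peak recurred in the lists of 3 factors and in both strains of each, and was called in 3 of the 6 IPs of each factor. The share of all promoters with such a recurrence was not computed, and COX8 was added after its values were seen. At Sut1p it was absent from WT replicates 1 and 2 and from nrg1Δ replicate 1, and without WT replicate 3 the Sut1p difference in mean score was 149.9 (p = 0.4, exact permutation test) in place of 73.7 (p = 0.7, exact permutation test).

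COX6, a nuclear-encoded subunit of complex IV, had an Rtg3p peak in WT replicate 2 (423.6, ninth of 117 peaks) and a Gcn4p peak in rtg3Δ replicate 3 (500.64). These peaks were centred 125 and 529 bp downstream of the COX6 start and also overlapped the promoters of YHR050W-A and CIC1. COX13 had a Sut1p peak of 54.31 in WT replicate 3, the list that stood apart. Neither gene was found in a second IP of the same strain.

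At the ATP synthase 6 of the 12 genes (50.0%) had a peak in any list, against 50.2% of all promoters. No factor returned to the same gene in a second IP. The share of all promoters without such a return was not computed. ATP2, the catalytic beta subunit, and ATP14, a stalk subunit, had Sut1p scores of 182.54 and 392.37 in WT replicate 2, and ATP5, which links the stalk to the catalytic head, had 151.19 in nrg1Δ replicate 3. ATP7, a stator subunit, had a Gcn4p score of 577.21 in rtg3Δ replicate 2. ATP16, the delta subunit, had a Swi6p score of 535.89 in WT replicate 1, from a 3674 bp peak centred 1529 bp downstream and covering MCD1, the cohesin subunit gene that follows it.

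ATP18 was the 1 ATP synthase gene in 2 lists, with an Rtg3p score of 99.12 in WT replicate 1 and a Sut1p score of 114.84 in nrg1Δ replicate 2. In complex II SDH1, the flavoprotein subunit, had a Gcn4p score of 768.63 in rtg3Δ replicate 1 and no other peak. None of the 12 ATP synthase genes and none of the 4 complex II genes was in 3 or more lists, whereas 25.3% of all promoters were.

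NDE1 (YMR145C, chromosome 13, 554793 to 556475 on the reverse strand), the external NADH dehydrogenase that oxidises cytosolic NADH, was found by Sut1p alone. Its scores were 116.77 and 1349.66 in WT replicates 1 and 2 with none in replicate 3, and in the nrg1Δ strain none in replicate 1 and 71.1 and 116.41 in replicates 2 and 3. WT replicate 2 stood above the other 5 IPs, which overlapped between strains, and the difference in mean of -426.3 gave p = 0.5 (two-sided exact permutation test, adjusted p = 1.0). The position differed between strains in these lists, with midpoints 828 and 609 bp upstream in WT and 214 and 221 bp upstream in nrg1Δ. Without Sut1p WT replicate 3 the NDE1 difference was -670.7, the strains no longer overlapped (116.77 was the lowest WT score and 116.41 the highest in nrg1Δ) and p was 0.1, the smallest that 2 IPs against 3 allow in an exact permutation test. NDE1 then joined HAP4 and COR1 as a gene found in every WT IP, so that 3 of 39 were, against 2.72% of all promoters. That p of 0.1 set 2 WT IPs of 1 culture against nrg1Δ IPs of separate cultures, so it does not measure variation between WT cultures. The IP left out was the only WT IP without an NDE1 peak, so its removal by itself ended the overlap. NDE1 was added after its values were seen, and that p was not adjusted.

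The 39 promoters accounted for 70 peaks over the 30 lists, with a median width of 1412 bp (592 to 3783 bp). Only 18 of the 70 (25.7%) had their midpoint inside the promoter they were counted for, 21 were centred farther upstream and 31 downstream of the gene start. Over all promoters, 38.8% of 10836 promoter and list pairs had a midpoint inside the promoter. At least 1 other promoter was overlapped by 53 of the 70 peaks (75.7%). The same share was not computed over all promoters, so it is not shown to be particular to these genes.

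A feature not used to choose the genes was the orientation of the upstream neighbour. Of the 20 genes with a peak in any list, 13 (65.0%) had a divergently transcribed protein-coding neighbour, against 3 of the 19 genes with no peak (15.8%). The median distance to the upstream neighbour was 609 bp and 424 bp, with ranges of 59 to 2346 bp and 253 to 1914 bp. In the genome as a whole the medians were 492 bp for protein-coding genes with a peak and 417 bp for those without. Over all protein-coding genes the share with a divergent neighbour was 51.5% of the 2963 with a peak and 52.5% of the 3029 without, so the orientation did not separate genes with and without peaks in the genome as a whole. The 13 genes with a divergent neighbour included HAP4, COR1, COX9 and CYC7, whereas NDE1, COX8 and QCR6 had a tandem one.

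Other genes of the pathway, 78 in number and taken by function (assembly factors, further subunits, other electron donors, quinone synthesis, carriers and Hap regulators), gave shares of the same order. With Sut1p 8.55% of them had a peak on average in WT IPs and 17.1% in nrg1Δ IPs, against 7.02% and 15.6% of all promoters. Of the 78 genes 2 had a peak in every WT IP and 6 in every nrg1Δ IP, against 0.544% and 7.23% of all promoters. The other subunits of the Hap complex (HAP2, HAP3 and HAP5) and HAP1, the haem-responsive activator, had no Sut1p peak in any nrg1Δ IP. In a WT IP 1 of the 4 had a peak. Of all 6430 promoters, 1653 had a peak in any nrg1Δ IP and 1091 in any WT IP. Counts over 4 genes were therefore not distinguishable from the background.

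CYC3, the cytochrome c haem lyase, had Sut1p scores of 132.79, 291.3 and 109.34 in the WT IPs and of 197.21 and 273.25 in nrg1Δ replicates 2 and 3, with none in replicate 1. SDH7, an assembly factor of complex II, had 664.35 and 486.96 in WT replicates 2 and 3 and 646.02, 429.43 and 793.85 in the nrg1Δ IPs. ATP25, required for ATP synthase assembly, was likewise in 5 of the 6 Sut1p lists, with scores of 134.88 to 265.38 where it had a peak. At all 3 genes the ranges of the strains overlapped, and none reached the score of 3100 seen at HAP4 and COR1.

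Among genes of the TCA cycle and its retrograde branch (19 genes), 17.5% had a Sut1p peak on average in WT IPs and 10.5% in nrg1Δ IPs. IDP1 was the 1 such gene with a peak in every nrg1Δ IP (7.23% of all promoters), with the same peaks and scores as COX9. The aconitase gene ACO1 had 352.77 and 1674.39 in WT replicates 1 and 2 and 241.0 in nrg1Δ replicate 2. Of 22 glycolytic genes, 4.55% had a Sut1p peak on average in WT and 13.6% in nrg1Δ. The phosphofructokinase genes PFK1 and PFK2 were found in every nrg1Δ IP and in no WT IP, a rule met by 2.97% of all promoters. Of the 138 ribosomal protein genes, 9.42% had a Sut1p peak on average in WT and 26.1% in nrg1Δ. The gene set described here, at 10.3% and 14.5%, thus lay between these groups in the nrg1Δ strain, and no test of the differences between groups was made.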

How the data were processed

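The authors sequenced IP and INPUT DNA, aligned single reads to the yeast genome, discarded reads that did not align uniquely and called peaks in each IP separately with MACS. The submitters' processing notes name CASAVA 1.8, Novoalign 2.07.0, MACS 1.4.0rc2 and build R64. The deposited lists give each peak's position and MACS score, with no read counts. 20 INPUT samples have no list of their own and were not used here.

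Promoters were the 600 bp upstream of each gene start in the RefSeq R64 annotation of strain S288C (6430 of 6431 nuclear genes; 1 had no strand), whereas the cells were W303. Peak starts were counted from 1, and 21 that fell below the first base were set to the chromosome start. Any overlap of 1 bp counted, and the highest score was kept. Scores of strains were compared at every promoter with a peak by exact two-sided permutation tests with Benjamini-Hochberg adjustment within a factor (Python 3.11.15, NumPy 2.4.6, pandas 2.3.3, SciPy 1.17.1), after the code was tested on simulated data. Shares were compared without a test. HAP4, genes found in every IP of a strain, and genes gained or lost were given in every IP, and up to 3 genes of each other list, by the number of Sut1p IPs. The genes and lists were chosen with earlier results of these data known. NDE1, COX8 and CYC7 were added after their values were seen. Alternatives were a 300 bp promoter, a minimum score of 100, a minimum overlap of 100 bp, equal list lengths, ranks in place of scores, a replicate block and each replicate left out.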

Additional observations from a re-analysis of the deposited data

How the results depend on the processing

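Each difference in share is followed by that of all promoters. With lists cut to the same number of peaks, the Sut1p difference was -5.13 points (-0.0467) and the Gcn4p difference 4.27 points (-0.586). With scores of at least 100 the Gcn4p difference was also 4.27 points (-0.00518). An alternative chosen after seeing the data counted a peak only where its midpoint lay in the promoter. It gave an Rtg3p difference of 1.71 points (-0.767) and left 0 genes with a Sut1p peak in every WT IP (0.0778% of all promoters) and 0 in every nrg1Δ IP (2.94%). The last count was also 0 with scores of at least 100 (4.4%) and with equal list lengths (0.778%). It ranged from 1 to 3 when 1 nrg1Δ replicate was left out, being 3 without replicate 1 (11.1%) or replicate 3 (8.46%). HAP4 and COR1 kept a peak in every WT IP under the other alternatives, and the HAP4 difference ranged from -2196.3 to -646.3 with 1 replicate left out. The deviations of same-numbered IPs correlated at -0.0241 to 0.074 for Sut1p, -0.0909 to 0.286 for Nrg1p, -0.0426 to 0.053 for Rtg3p, -0.162 to -0.0714 for Gcn4p and 0.0246 for Swi6p. For no factor were all above 0.1, so the numbers were not taken to pair the IPs. With the replicate block the HAP4 difference stayed at -1210.4, with p = 0.5 by exact permutation. Unknown depth, the scores shared at 3100, WT IPs split from 1 culture and 3 or fewer IPs per strain limit all of these comparisons. Outside Gcn4p and Rtg3p, 1 INPUT per strain limits them too.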
